A study of Mus musculus with 24 samples.

Results

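The genes described here are 10 mouse genes of germ cells and of the piRNA pathway, a class of which many members are known to be kept off in somatic cells by promoter DNA methylation: Tdrd12, Mael, Dazl, Sycp3, Asz1, Piwil2, Ddx4, Fkbp6, Dppa3 and Fmr1nb. They were chosen by name, with earlier results of these data known, as were the gene lists below. Every probe set that the platform annotation gives to 1 of them alone was read. This gave 11 probe sets for 9 of the 10 genes, out of 18193 genes named in this way. Fkbp6 had none and has no value here. The expression values are deposited log2 values of Affymetrix mouse expression arrays, on which 1 unit is a factor of 2 in signal. A probe set was tested where it reached log2 5 on at least 3 of the 24 arrays, which 8 of the 9 measured genes did, among 9504 tested genes. Asz1 stayed below log2 5 on every array.

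The arrays measured RNA from 129/Sv mouse embryonic stem cells kept undifferentiated. The groups carry different alleles of Hdh (now Htt), which encodes huntingtin. Control cells carried 7 CAG repeats on both alleles (6 arrays), and knock-out cells are labelled null (6 arrays). In the 4 knock-in lines, with 3 arrays each, an allele of 7 repeats was paired with an allele of greater length. That allele had 16 repeats in line Q20, 45 repeats in line Q50 except for 43 in its replicate 3, 85 repeats in line Q91, and 111 repeats in line Q111. Each array is titled a biological replicate, but the labels name no clone or culture, so p-values measure the spread between these arrays and that spread may be technical. Strain, differentiation state and growth conditions were labelled alike in all groups. The description field of the labels contradicts the titles and genotypes for the control and knock-out arrays, and the titles and genotypes were followed. On its strongest probe set Htt lay within 7.45 to 8.25 on the control arrays (median 8.09) and within 6.67 to 7.39 on the knock-out arrays (median 7.31), a change of -0.80 (SE 0.16, adjusted p = 0.00195, limma). These groups do not overlap, but the knock-in lines, which the labels do not call null, averaged 7.54, 7.40, 6.96 and 7.22 in Q20, Q50, Q91 and Q111, so Htt RNA did not set the knock-out apart from them (difference from their mean -0.07, 95% interval -0.35 to 0.22, adjusted p = 0.719). A further probe set ran from 6.34 to 7.21 in the knock-outs and overlapped the controls, 6.23 to 6.65. The labels and files do not place these probes relative to the altered part of the gene, so Htt signal is a weak check of the labels, and "knock-out" stands for the arrays labelled so.

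piRNAs are small RNAs of the germ line that guide PIWI proteins to transposon RNA, and in the fetal male germ line they direct DNA methylation to transposon promoters. Tudor-domain proteins, helicases and mitochondrial adaptors make and load them in cytoplasmic granules. Many genes of this pathway, and some of meiosis and germ cell identity, have CpG-rich promoters that become methylated in the early embryo and lose that methylation in primordial germ cells. Mouse embryonic stem cells are also known to express part of this set. The arrays measured RNA and no methylation. Of the 9 measured genes, 5 (Tdrd12, Mael, Sycp3, Piwil2 and Ddx4) stood at log2 5 or more on all 24 arrays, so the RNA levels do not bear out the name "silenced" for these. Dazl reached log2 5 on 17 arrays, Dppa3 on 20 and Fmr1nb on 20, and Asz1 on none.

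The promoters show how unlike these genes are in CpG content. RefSeq windows of 300 bases around an annotated start site, from 250 bases before to 50 after it (build GRCm38.p6), were at hand for 8 of the 10 genes. Dppa3 and Piwil2 were not among them. The windows of Ddx4 and Fkbp6 lay wholly inside the annotated gene, with 0 bases upstream of its first base. Their counts and motifs below thus describe sequence within the gene. Of the Tdrd12 window 210 bases lay upstream of the gene. Windows of Ddx4, Dazl, Mael and Fkbp6 held 38, 28, 24 and 21 CpG dinucleotides, those of Asz1 and Sycp3 17 and 15, and those of Tdrd12 and Fmr1nb 9 each, against a median of 7 over 27025 genes. The ratio of observed to expected CpG was 0.6 or more in 7 of the 8 windows and in 36.5% of all windows; Tdrd12 had 0.34. The E-box CACGTG, which reads the same on both strands, occurred in 4 of the 8 windows (Mael, Ddx4, Fkbp6 and Sycp3) and in 7.24% of all. The E2F-type motif TCCCGC, on either strand, occurred in 3 of the 8 (Mael, Ddx4 and Sycp3) and in 20.1% of all. These are matches of letters and describe no binding.

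The bases upstream of the gene are shown for 5 genes: Tdrd12, Mael and Fmr1nb, which were called lower in the knock-out, Dazl, which varied with Mael between arrays, and Sycp3, which was not called in the knock-out. Each runs 5′ to 3′ on the strand of its gene up to the first base of the annotated gene, with CpG dinucleotides in capitals.
Tdrd12, chr7:35537785-35537994, minus strand: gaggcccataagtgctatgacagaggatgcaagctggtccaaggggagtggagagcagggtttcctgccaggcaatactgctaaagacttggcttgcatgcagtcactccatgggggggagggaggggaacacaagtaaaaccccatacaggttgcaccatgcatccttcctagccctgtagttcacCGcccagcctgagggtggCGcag
Mael, chr1:166238745-166238994, minus strand: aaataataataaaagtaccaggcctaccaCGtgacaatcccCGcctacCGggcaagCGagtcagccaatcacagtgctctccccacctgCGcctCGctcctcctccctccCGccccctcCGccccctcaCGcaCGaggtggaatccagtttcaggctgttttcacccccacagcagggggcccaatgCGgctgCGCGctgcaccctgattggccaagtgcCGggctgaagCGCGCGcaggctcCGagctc
Fmr1nb, chrX:68761589-68761838, plus strand: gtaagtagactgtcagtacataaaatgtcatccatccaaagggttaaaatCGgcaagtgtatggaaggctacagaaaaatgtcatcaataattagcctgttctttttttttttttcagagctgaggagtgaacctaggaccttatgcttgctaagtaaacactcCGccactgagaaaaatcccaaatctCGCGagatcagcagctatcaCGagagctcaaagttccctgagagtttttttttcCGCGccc
Dazl, chr17:50293621-50293870, minus strand: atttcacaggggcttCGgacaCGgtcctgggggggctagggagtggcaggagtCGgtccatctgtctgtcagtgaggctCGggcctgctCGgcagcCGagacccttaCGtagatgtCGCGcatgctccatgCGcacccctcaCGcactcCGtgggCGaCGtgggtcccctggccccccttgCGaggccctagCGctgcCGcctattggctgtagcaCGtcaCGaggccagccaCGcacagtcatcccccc
Sycp3, chr10:88459337-88459586, plus strand: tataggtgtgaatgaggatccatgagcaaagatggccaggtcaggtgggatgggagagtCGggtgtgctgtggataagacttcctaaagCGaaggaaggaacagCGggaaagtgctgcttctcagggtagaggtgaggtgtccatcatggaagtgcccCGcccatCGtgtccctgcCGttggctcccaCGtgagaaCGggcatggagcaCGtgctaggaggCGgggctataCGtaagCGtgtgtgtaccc
The upstream stretch of Tdrd12 held 2 CpG dinucleotides in 210 bases. Those of Fmr1nb, Sycp3, Mael and Dazl held 7, 12, 18 and 20 in 250 bases. The 3 genes called lower in the knock-out thus had the lowest window counts of the set, 9 in Tdrd12 and Fmr1nb, and a high one, 24 in Mael.

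Knock-out cells held less RNA of Tdrd12, Mael and Fmr1nb than control cells. Of the 8 tested genes, 3 were called in the knock-out at an adjusted p under 0.05, all lower, where 16.4% of all tested genes were called and 8.81% were called lower. The median change of the 8 was -1.37, against -0.02 over all tested genes. As the genes were chosen with earlier results of these data known, these shares and medians describe the genes and test nothing about the set. The knock-out and control arrays did not overlap for 5 of the 8, below for Tdrd12, Mael, Fmr1nb and Dazl and above for Piwil2; this held for 12.8% of all tested genes. With only the knock-out and control arrays in the fit, which then takes its spread from these 12, Dazl and Piwil2 passed the threshold too, giving 5 calls, where 23.4% of all tested genes were called.

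**Figure D1:**
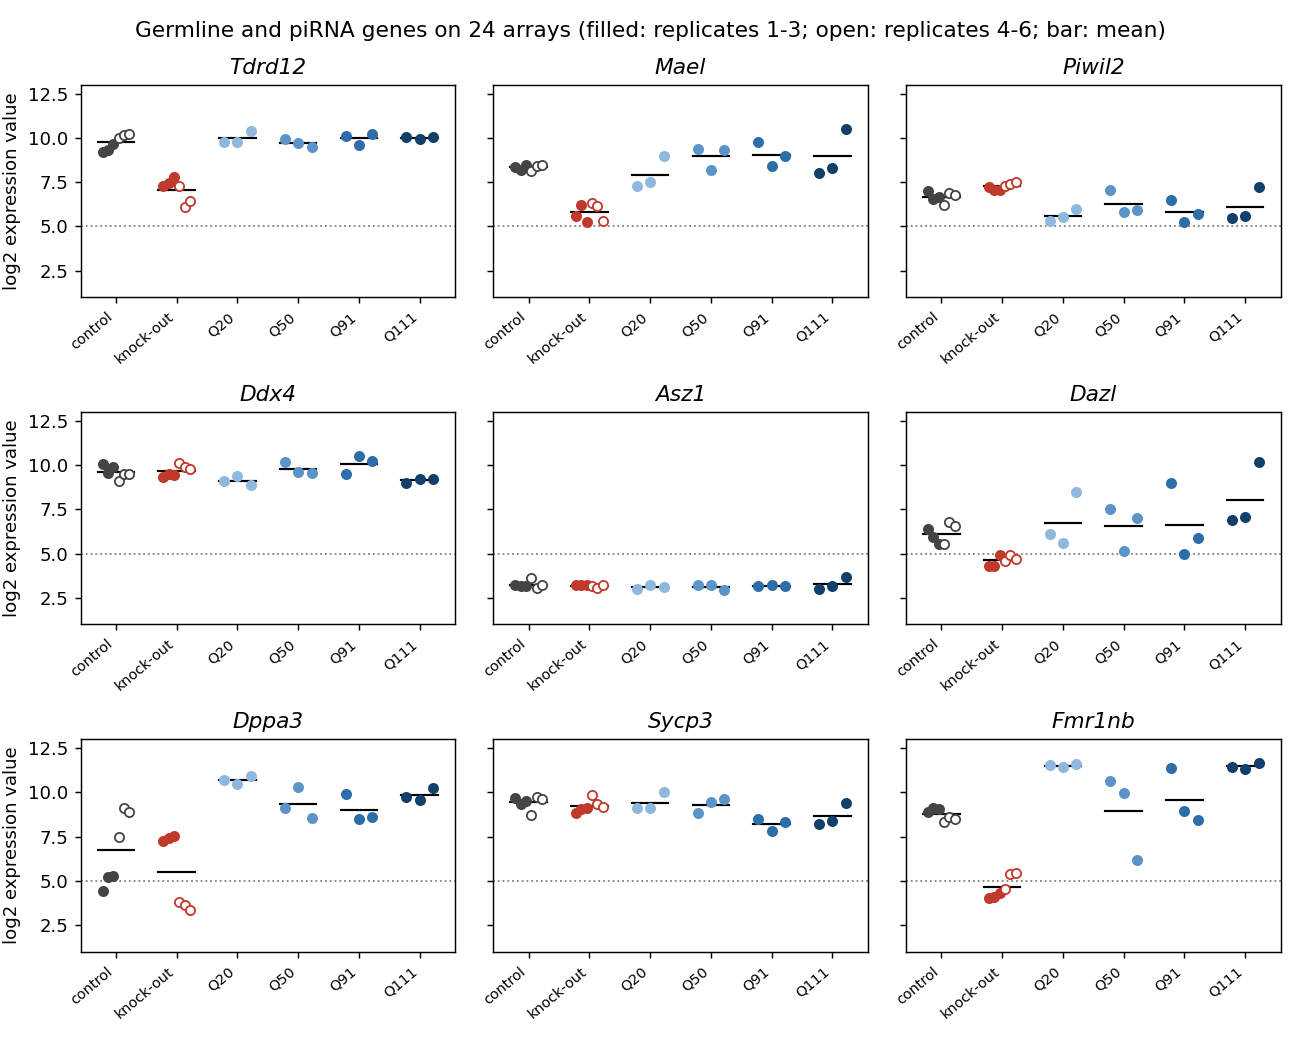
Deposited log2 expression value (vertical axis) of the strongest probe set of each of the 9 measured genes on all 24 arrays, by group; filled points are replicates 1-3, open points replicates 4-6, the bar is the group mean and the dotted line marks log2 5. Knock-out arrays lie below all control arrays for Tdrd12, Mael, Dazl and Fmr1nb, and Dppa3 is crossed between the sets of replicates.

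Tdrd12, on chromosome 7 (probe set 1453219_a_at), encodes a Tudor-domain helicase needed to make secondary piRNAs. Its control arrays lay between 9.23 and 10.22 with a median of 9.82, and its knock-out arrays between 6.12 and 7.78 with a median of 7.29. The lines stood with the controls: 9.77, 9.79 and 10.37 in Q20, 9.97, 9.74 and 9.50 in Q50, 10.13, 9.59 and 10.22 in Q91, and 10.08, 9.93 and 10.05 in Q111. Among the 24 arrays the 6 knock-out arrays were thus the 6 lowest. The knock-out change was -2.70 (SE 0.24, adjusted p = 5.82e-07), which leaves 15.4% of the control signal, while the changes of the 4 lines ran from -0.02 to 0.26 and none was called. The annotated neighbour at higher coordinates, Nudt19, a Nudix hydrolase gene, changed by -0.55 in the knock-out (adjusted p = 0.000798), and Slc7a9 on the other side was not tested. The chromosome 7 median, over 709 tested genes and relative to the control mean, lay between -0.06 and -0.01 in the knock-outs, and its part in the Tdrd12 values was not tested.

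Mael, on chromosome 1 (1436837_at), encodes maelstrom, a granule protein that acts in piRNA processing and transposon repression. Control arrays lay within 8.16 to 8.49 (median 8.37), the tightest group of the gene, and knock-out arrays within 5.26 to 6.30 (median 5.87). The change was -2.54 (SE 0.37, adjusted p = 0.00019), which leaves 17.2% of the control signal. The lines were spread widely, at 7.30, 7.52 and 8.98 in Q20, 9.38, 8.16 and 9.32 in Q50, 9.79, 8.39 and 8.98 in Q91, and 8.04, 8.33 and 10.51 in Q111. Their means of 7.93, 8.95, 9.06 and 8.96 stood on both sides of the control mean of 8.34, and none of the 4 differences was called (adjusted p from 0.290 to 0.550).

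Fmr1nb, on the X chromosome beside Fmr1 (1434739_at), encodes a membrane protein known as a cancer/testis antigen. Control arrays lay within 8.33 to 9.11 (median 8.76) and knock-out arrays within 4.04 to 5.45 (median 4.43), so the knock-out mean of 4.64 is below log2 5. The change was -4.11 (SE 0.55, adjusted p = 7.72e-05); with 2 of 6 knock-out arrays at log2 5 or more, its size rests on weak signals. In Q20 the arrays stood at 11.54, 11.43 and 11.58 and in Q111 at 11.41, 11.30 and 11.68, above every control array. Q50 held 10.65, 9.95 and 6.20, and Q91 held 11.37, 8.93 and 8.43, so these lines straddled the controls. Its neighbour Fmr1, the fragile X gene, was called in the knock-out in the other direction, with 0.31 (adjusted p = 0.0299). The X chromosome median lay between -0.091 and -0.002 in the knock-outs and between 0.08 and 0.24 in the knock-in lines. Its part in the Fmr1nb values was not tested.

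Dazl, on chromosome 17, encodes an RNA-binding protein that marks and sustains germ cell identity. Its stronger probe set (1419542_at) lay within 5.53 to 6.78 in controls (median 6.16) and within 4.27 to 4.94 in knock-outs (median 4.63), so every knock-out array was below log2 5. The change was -1.50 (SE 0.64, adjusted p = 0.121), not called although the arrays do not overlap. The second probe set (1449502_at) gave -0.89 (SE 0.56, adjusted p = 0.324), with knock-out arrays from 2.86 to 4.28 overlapping control arrays from 4.22 to 5.94.

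Piwil2, on chromosome 14 (1449170_at), encodes a PIWI protein that binds piRNAs. Control arrays lay within 6.19 to 6.98 (median 6.73) and knock-out arrays within 7.03 to 7.54 (median 7.28), all above the controls. The change of 0.58 (SE 0.27, adjusted p = 0.166) was not called. Beside it, the median of 335 tested chromosome 14 genes stood 0.32 to 0.54 above the control mean in the knock-outs and between -0.236 and -0.001 in the lines. Both annotated neighbours were called higher in the knock-out, the zinc transporter gene Slc39a14 by 0.81 (adjusted p = 0.000807) and the RNA polymerase III subunit gene Polr3d by 0.46 (adjusted p = 0.0189). The part of the chromosome in the Piwil2 values was not tested.

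Ddx4, on chromosome 13 (1427242_at), encodes the vasa helicase of germ granules. Its knock-out arrays, 9.32 to 10.14, overlapped the control arrays, 9.08 to 10.05, with a change of 0.09 (95% interval -0.30 to 0.48, adjusted p = 0.810). Sycp3, on chromosome 10 (1449534_at), encodes a protein of the axial element of meiotic chromosomes. Its knock-out arrays, 8.85 to 9.87, also overlapped the controls, 8.72 to 9.71, with a change of -0.20 (95% interval -0.68 to 0.29, adjusted p = 0.640). Asz1, on chromosome 6, encodes a mitochondrial adaptor of piRNA biogenesis, and its probe sets stayed within 2.25 to 2.47 (1422402_a_at) and 2.95 to 3.68 (1424939_at) over all 24 arrays. The germline and piRNA genes thus did not move as 1 set in the knock-out.

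**Figure D2:**
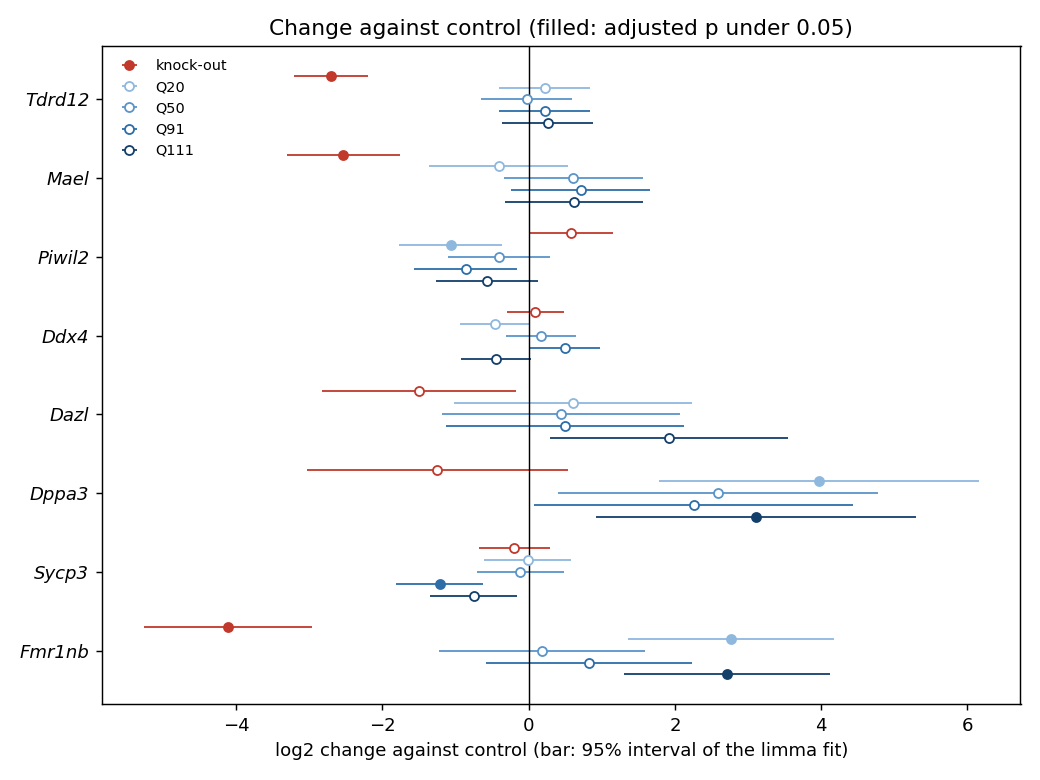
Log2 change against control (horizontal axis) of the 8 tested genes in the knock-out and in each knock-in line; points are estimates of the limma fit, bars their 95% intervals, and filled points have an adjusted p under 0.05. Tdrd12, Mael and Fmr1nb are filled below 0 in the knock-out, and Fmr1nb and Dppa3 are filled above 0 in Q20 and Q111.

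Dppa3, on chromosome 6 (1424295_at), encodes stella, which marks primordial germ cells and protects maternal DNA methylation in the zygote; in embryonic stem cell cultures it is known to vary from cell to cell. The numbered replicates of both groups fell apart for this gene. Control replicates 1 to 3 stood at 4.43, 5.21 and 5.27 and replicates 4 to 6 at 7.50, 9.12 and 8.92. Knock-out replicates 1 to 3 stood at 7.25, 7.41 and 7.52 and replicates 4 to 6 at 3.80, 3.63 and 3.35. High and low thus changed places between the groups, and over all 12 arrays the groups overlapped.

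Over all 12 arrays the Dppa3 change was -1.25 (SE 0.86, adjusted p = 0.369). Within replicates 1 to 3, with the spread of all arrays, it was 2.42 (SE 0.44, adjusted p = 0.00241); 4 of the 8 genes were called there, Dppa3, Tdrd12, Mael and Fmr1nb, where 7.37% of all tested genes were called. Within replicates 4 to 6 it was -4.92 (SE 0.44, adjusted p = 1.65e-06), with the same 4 genes called, where 11.0% of all were called. These comparisons set arrays of the same numbers against each other, but the numbers do not pair the groups. Over all tested probe sets, deviations from the group mean correlated with r from 0.18 to 0.50 between control replicates 1 to 3 and knock-out replicates 4 to 6, from 0.15 to 0.40 between control replicates 4 to 6 and knock-out replicates 1 to 3, and below 0 for every pair of arrays from same-number sets (-0.46 to -0.10). The set means of Dppa3 were 4.97 and 8.51 in the controls and 7.39 and 3.59 in the knock-outs, so the sign of the change depends on which sets are compared. With same-number sets, the second change minus the first was -7.34 (SE 0.62, adjusted p = 3.38e-06). This difference was called for 2 of the 8 genes, Dppa3 and Tdrd12, and for 1.73% of all tested genes.

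The split was visible inside each group as well. Sets were compared after they were seen to stand apart, so the p-values of these comparisons, here and above, describe the split and do not test it. Replicates 4 to 6 differed from 1 to 3 by 3.54 (SE 0.44, adjusted p = 0.00142) in the controls and by -3.80 (SE 0.44, adjusted p = 0.000495) in the knock-outs. Among all tested genes 9 were called in the controls and 9 in the knock-outs, 0.0947% each time, and Dppa3 was the single gene of the 8 called in both. For its neighbours Nanog and Gdf3 the difference between the sets was -0.04 (SE 0.37, adjusted p = 0.981) and 0.02 (SE 0.24, adjusted p = 0.985), and of 10 neighbouring and naive pluripotency genes none was called by limma for the difference between the sets (1 at an unadjusted p under 0.05). The Y-linked translation factor gene Eif2s3y was crossed in the same arrays, at 8.47, 8.26 and 8.68 against 9.48, 10.23 and 10.35 in the controls and at 9.79, 10.11 and 10.08 against 8.81, 8.39 and 8.10 in the knock-outs. What these sets of replicates are is not given in the labels, and the part of any difference in culture or array handling in the Dppa3 values was not tested.

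Tdrd12 was lower in both sets. Its change was -1.88 in replicates 1 to 3 (adjusted p = 0.000101) and -3.52 in replicates 4 to 6 (adjusted p = 5.70e-08), a difference of -1.63 (SE 0.34, adjusted p = 0.0194). That difference lost its call without control replicate 1 or 2 or without knock-out replicate 3, 5 or 6, with adjusted p from 0.0511 to 0.0597. The set means were 9.40 and 10.12 in the controls and 7.51 and 6.60 in the knock-outs, so the size of this difference too depends on which sets are compared, while all knock-out arrays lay below all control arrays. Mael was lower in both sets, -2.66 (adjusted p = 0.00638) and -2.41 (adjusted p = 0.00930). Fmr1nb was lower in both, by -4.86 (adjusted p = 0.000934) and -3.36 (adjusted p = 0.0104), and the difference of 1.49 was not called (adjusted p = 0.558).

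**Figure D3:**
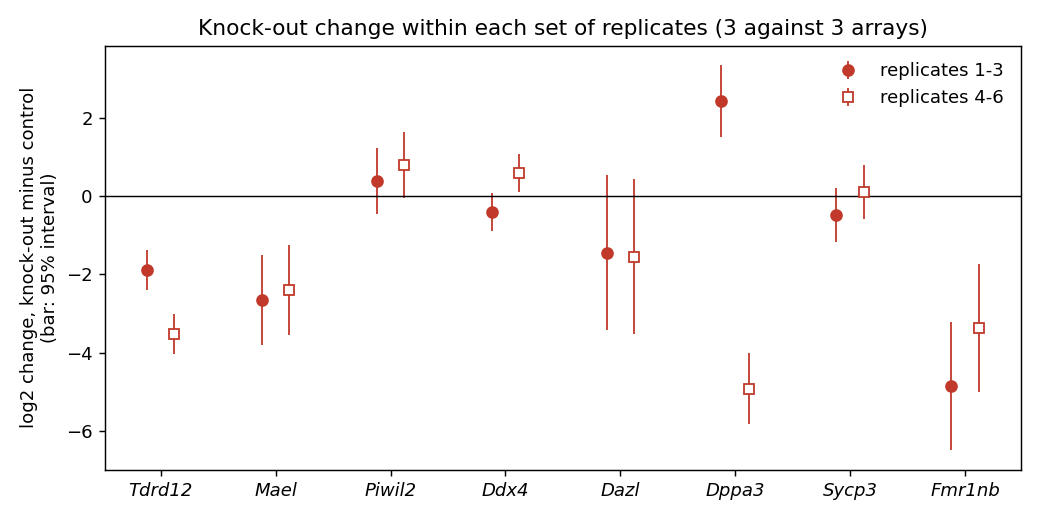
Log2 change of knock-out minus control (vertical axis) within replicates 1-3 (filled circles) and within replicates 4-6 (open squares), 3 arrays against 3, for the 8 tested genes; bars are 95% intervals with the spread of all arrays. Dppa3 is at 2.42 in the first set and -4.92 in the second, while Tdrd12, Mael and Fmr1nb are below 0 in both.

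The 4 knock-in lines were each compared with the same 6 control arrays as the knock-out, so these comparisons are not independent, and their values are set side by side. In Q20, 3 of the 8 genes were called, where 26.7% of all tested genes were called. Dppa3 stood at 10.70, 10.49 and 10.94, above every control array, a change of 3.97 (SE 1.05, adjusted p = 0.00885). Against control replicates 4 to 6 alone the change was 2.20 and was not called (adjusted p = 0.159). Fmr1nb changed by 2.76 (SE 0.68, adjusted p = 0.00540). Piwil2 stood at 5.31, 5.56 and 5.97, below every control array, a change of -1.06 (SE 0.34, adjusted p = 0.0248) that lost its call without Q20 replicate 1 (adjusted p = 0.125) or 2 (adjusted p = 0.0780).

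In Q50 none of the 8 genes was called by limma, where 7.50% of all tested genes were called; at an unadjusted p under 0.05 there was 1, Dppa3. Its arrays stood at 9.11, 10.30 and 8.57, a change of 2.59 (SE 1.05, adjusted p = 0.129). The Fmr1nb change of 0.18 (SE 0.68) averaged arrays that lay far apart. Q50 replicate 3, whose label gives 43 repeats in place of 45, was the lowest knock-in array for Fmr1nb, at 6.20, and also the lowest for Eif2s3y, at 4.55 where the other knock-in arrays stood between 10.12 and 12.64. Its X chromosome median, 0.24, was the highest of the 12. Its medians for chromosomes 6 (0.10), 7 (0.17), 10 (0.14), 13 (0.15) and 17 (0.18) were also the highest of the 12. A high median was thus not particular to the X chromosome on this array.

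In Q91 the single call was Sycp3, where 24.6% of all tested genes were called. Its arrays stood at 8.50, 7.83 and 8.31, below every control array, a change of -1.21 (SE 0.29, adjusted p = 0.00432). Piwil2, at 6.50, 5.23 and 5.73, changed by -0.86 (adjusted p = 0.0723) and Dppa3, at 9.90, 8.49 and 8.60, by 2.26 (adjusted p = 0.134). Without Q91 replicate 1, which was the highest array of the line for Piwil2, 3 genes were called: Ddx4, Piwil2 and Sycp3.

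In Q111 there were 2 calls among the 8, where 27.4% of all tested genes were called. Fmr1nb changed by 2.71 (SE 0.68, adjusted p = 0.00571). Dppa3, at 9.76, 9.56 and 10.23, changed by 3.11 (SE 1.05, adjusted p = 0.0338). The Dppa3 call was lost without control replicate 1, 2 or 3 and without any 1 of the Q111 arrays (adjusted p from 0.0679 to 0.0953) and with the replicate number as a block (adjusted p = 0.109), and the change was 1.34 against control replicates 4 to 6 alone. Dazl, at 6.89, 7.07 and 10.17, lay above every control array with a change of 1.92 (SE 0.78, adjusted p = 0.0755). Sycp3, at 8.22, 8.39 and 9.42, changed by -0.75 (adjusted p = 0.0595); without Q111 replicate 3 the change was -1.12 and was called (adjusted p = 0.00916), as was Piwil2 with -1.14 (adjusted p = 0.00970).

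Set against the mean of the 4 lines, the knock-out differed in 6 of the 8 genes, where 49.1% of all tested genes were called. The log2 difference was -5.73 for Fmr1nb (SE 0.48, adjusted p = 1.27e-08), -4.23 for Dppa3, -2.92 for Mael, -2.87 for Tdrd12 and -2.37 for Dazl, and it was 1.31 for Piwil2. The second Dazl probe set gave -1.17 and was not called (adjusted p = 0.0548). For Piwil2 the chromosome 14 medians given above differ between these groups in the same direction.

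Among the lines themselves, the moderated F-test called Ddx4 (adjusted p = 0.0386) and Sycp3 (adjusted p = 0.0483), 2 of 8 genes, where 10.3% of all tested genes were called. Ddx4 averaged 9.13 ± 0.27 (SD, n = 3) in Q20, 9.77 ± 0.36 in Q50, 10.1 ± 0.52 in Q91 and 9.15 ± 0.12 in Q111. Sycp3 averaged 9.42 ± 0.53 in Q20, 9.31 ± 0.40 in Q50, 8.21 ± 0.35 in Q91 and 8.68 ± 0.65 in Q111. In the order of the means, the Ddx4 arrays of Q20 and Q111 overlapped, as did those of Q50 and Q91, while all Q111 arrays lay below all Q50 arrays; for Sycp3 the arrays of all neighbouring lines overlapped. Ddx4 lost its call without Q20 replicate 1 or 3, Q91 replicate 2 or 3, or Q111 replicate 1 or 2 (adjusted p from 0.0622 to 0.116). Sycp3 lost it without any 1 of the Q20 arrays, Q50 replicate 2 or 3, Q91 replicate 2 or 3, or Q111 replicate 1 or 2 (adjusted p from 0.0537 to 0.148). With the replicate number as a block neither was called (adjusted p = 0.0913 for Ddx4 and 0.0548 for Sycp3). Fmr1nb was at an adjusted p of 0.0527. The slope on the longer repeat over the 12 knock-in arrays called none of the 8 genes and 0.0526% of all; at an unadjusted p under 0.05 there was 1, Sycp3, with -1.08 per 100 repeats (adjusted p = 0.960). Line and repeat length cannot be told apart here.

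Within the lines, Mael, Dazl, Piwil2 and Fmr1nb were highest on the same array. Dazl stood at 6.11, 5.59 and 8.46 in Q20, 7.52, 5.17 and 7.01 in Q50, 9.0, 4.96 and 5.89 in Q91, and 6.89, 7.07 and 10.17 in Q111. Piwil2 stood at 7.08, 5.80 and 5.93 in Q50 and at 5.50, 5.57 and 7.25 in Q111. Q20 replicate 3, Q50 replicate 1, Q91 replicate 1 and Q111 replicate 3 were the highest of their line for all of these genes. Fmr1nb stood there at 11.58, 10.65, 11.37 and 11.68, and the second Dazl probe set, highest there too, at 6.19, 5.59, 6.50 and 7.91. Dppa3 and Sycp3 were highest on the same arrays except in Q50. For Tdrd12 this held in Q20 and Q50 only, and for Ddx4 in Q50 and Q111 only. Deviations from the line means over the 12 arrays, which share array and sample between genes, correlated with r = 0.94 for Dazl and Mael, 0.87 for Dazl and Piwil2 and 0.88 for Mael and Piwil2. These pairs were picked after their values were seen. Sycp3 had r = 0.79 with Mael, 0.70 with Dazl and 0.53 with Piwil2. Fmr1nb had r = 0.12 with Mael, 0.31 with Dazl and 0.48 with Piwil2.

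Other germline genes were highest on the same arrays. A mean was taken over 20 other germline genes, listed as having CpG-rich promoters. It was 4.97, 5.12 and 5.37 in Q20, and 5.89, 5.17 and 5.53 in Q50. In Q91 it was 5.71, 4.90 and 5.18, and in Q111 5.14, 5.13 and 6.06. The mean of 8 markers of undifferentiated embryonic stem cells, among them Pou5f1 and Sox2, was also the highest of its line on each of these arrays. It stood at 13.44, 13.52, 13.25 and 13.57. In Q50 and Q91 the margin was narrow, with replicate 3 at 13.51 and 13.23. Other lists of cell state followed less closely. The mean of the Dppa3 neighbours and naive genes was highest on these arrays except in Q50, where replicate 3 stood at 11.06 and replicate 1 at 10.73. The mean of the primed epiblast markers was the lowest of its line on Q20 replicate 3 and Q111 replicate 3 and the highest on Q91 replicate 1. The chromosome 1 median, over 525 tested genes, relative to the control mean, was 0.13, 0.16 and 0.21 on Q50 replicate 1, Q91 replicate 1 and Q111 replicate 3, and between -0.49 and -0.32 on the other 9 knock-in arrays, Q20 replicate 3 among them. In the controls it lay between -0.20 and 0.14 and in the knock-outs between -0.07 and 0.15, so the low Mael values of the knock-out stood beside chromosome 1 medians that overlapped those of the controls. The part of chromosome 1 and of cell state in these values was not tested.

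**Figure D4:**
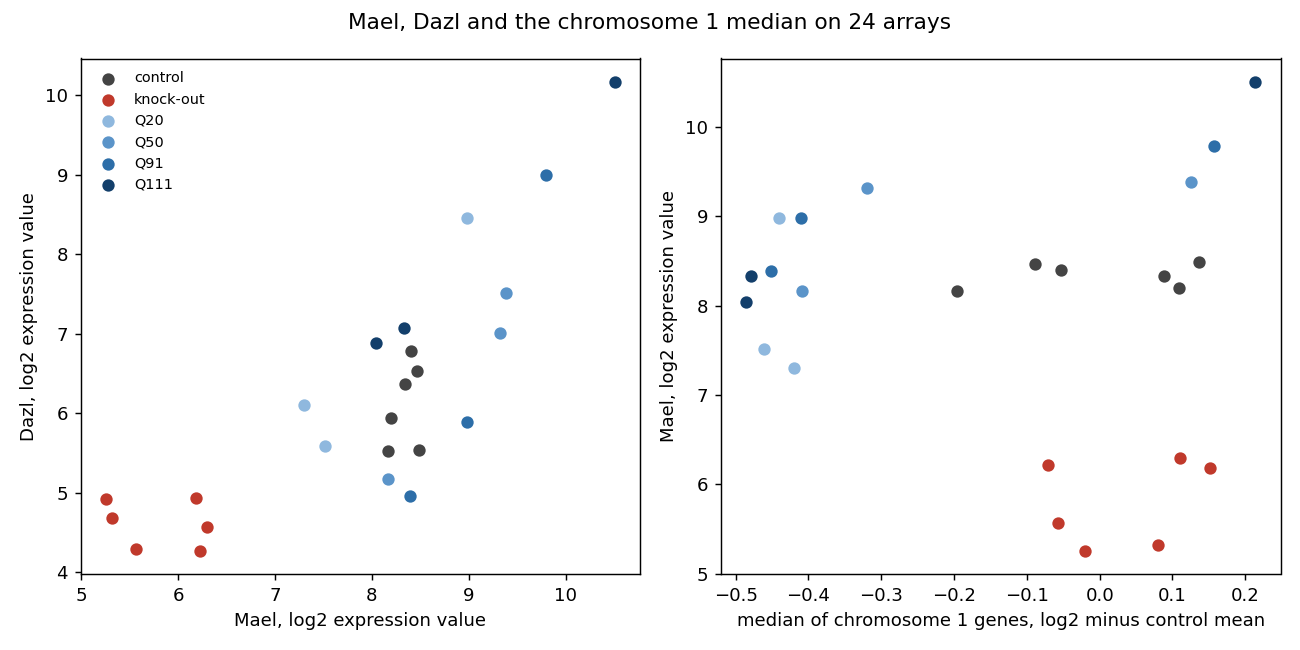
Left, log2 value of Dazl (vertical axis) against that of Mael (horizontal axis) on all 24 arrays; right, log2 value of Mael against the median of chromosome 1 genes relative to the control mean; each point is 1 array, coloured by group. Q111 replicate 3 is at the top of both panels, at 10.51 for Mael, and the 6 knock-out arrays lie below all others for Mael.

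Genes whose pattern over the 24 arrays was most like that of each gene were named by Pearson's r, as a description. For Tdrd12 they were Lncenc1 (0.96), Pla2g1b (0.96) and Mest (0.93), and for Mael Eif2b3 (0.91), Cbwd1 (0.89) and Pla2g1b (0.89). For Fmr1nb they were Vamp7, Spop and Parp12 (0.93 to 0.95), and for Dppa3 Skp1, Klhl13 and Esrp1 (0.91 to 0.93). For Dazl they were Gpat2, itself a gene of piRNA biogenesis (0.94), Cyct, the testis form of cytochrome c (0.90), and Dmxl2 (0.90). For Piwil2 they were Pikfyve, Dbi and Sgo2a (0.94 each), and for Sycp3 and Ddx4 the likest genes reached 0.82 (Trap1a) and 0.80 (Cnpy1).

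The rest of the pathway was low on these arrays. Of 15 other piRNA pathway genes 14 had a single-gene probe set and 6 were tested; 3 were called lower in the knock-out, where 8.81% of all tested genes were called lower. For 2 of the 3 both group means lay below log2 5, so the size of these changes is uncertain: Gtsf1, a cofactor of PIWI proteins, averaged 4.52 in controls and 2.23 in knock-outs, and Mov10l1, the helicase that binds piRNA precursors, averaged 4.73 and 3.82. Tdrkh, a Tudor adaptor, averaged 5.64 and 4.82 (-0.82, SE 0.27, adjusted p = 0.0479). Genes this low were tested only because a few arrays reached log2 5, so their count supports nothing about the pathway. In the lines, Mov10l1 was the 1 gene of the list called, lower in Q20, Q91 and Q111, and limma called none in Q50 (0 at an unadjusted p under 0.05).

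A further list held 24 other germline genes, listed as having CpG-rich promoters, though the CpG content of their promoters was not read here. Of these 13 were tested, and 6 were called lower in the knock-out and none higher, where 8.81% of all tested genes were called lower. The median of the 13 was -0.98, against -0.02 over all tested genes. Of the 20 genes with a probe set 7 stayed below log2 5 on every array. A gene near log2 5 is tested only through the arrays where it is higher, which limits this count. The list was also chosen with earlier results of these data known, so count and median are a description. D1Pas1, a DEAD-box helicase gene of spermatocytes, averaged 8.83 in controls and 6.36 in knock-outs (-2.47, SE 0.43, adjusted p = 0.000746). Tex19.1, which restrains transposons in germ cells and placenta, averaged 10.9 and 9.09 (-1.83, SE 0.32, adjusted p = 0.00086). Hormad1, a protein of unsynapsed meiotic axes, changed by -1.04 (SE 0.26, adjusted p = 0.0105), and Tex14, of germ cell bridges, by -0.98 (SE 0.30, adjusted p = 0.0335). Tex19.1 was called higher in Q20 (1.40) and Q111 (1.49), while D1Pas1 was called lower in both (-2.66 and -2.31). Within replicates 1 to 3 and 4 to 6, 2 and 3 of the 13 were called, all lower. Of all tested genes 7.37% and 11.0% were called within these sets, in either direction.

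Of 18 meiotic chromosome genes 9 were tested, with a median change of -0.86. Of these, 3 were called lower in the knock-out and none higher, beside the same 8.81% of all tested genes. Array means of the 18 lay between 4.91 and 5.25 in controls and between 4.51 and 4.69 in knock-outs, and 7 stayed below log2 5 on every array. Genes near log2 5 are tested only through the arrays where they are higher, so this count supports nothing about the list. Mei4, needed to start meiotic recombination, changed by -0.86 (SE 0.12, adjusted p = 0.000117), Meioc, needed to sustain meiotic prophase, by -1.65 (SE 0.33, adjusted p = 0.00225), and Syce1, of the central element, by -1.59 (SE 0.38, adjusted p = 0.00786). Of 9 tested genes of primordial germ cell specification none was called by limma in the knock-out (2 at an unadjusted p under 0.05, Alpl and Ifitm1); Prdm14, a regulator of germ cell fate and of naive cells, was at 0.69 (adjusted p = 0.236). In the lines the calls among these 9 genes went both ways. In Q20 2 were called higher and 2 lower, and in Q50 2 higher and 1 lower. In Q91 and Q111 4 and 3 were called lower and none higher. Of all tested genes 26.7%, 7.50%, 24.6% and 27.4% were called in Q20, Q50, Q91 and Q111, in either direction. Prdm14 was called lower in Q20 (-1.91), Q91 (-2.75) and Q111 (-1.34).

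The enzymes that set DNA methylation were part of the same comparison. Of 12 tested genes of DNA methylation and demethylation 4 were called in the knock-out, all lower, beside 8.81% of all: Dnmt3l by -1.66 (SE 0.13, adjusted p = 3.67e-08), Dnmt3a by -1.44 (SE 0.31, adjusted p = 0.00358), Dnmt3b by -1.18 (SE 0.17, adjusted p = 0.000195) and Mbd3, a subunit of the NuRD complex, by -0.32 (adjusted p = 0.0377). Dnmt3a and Dnmt3b are the methyltransferases that act on unmethylated DNA, and Dnmt3l is their cofactor. The median of the 12 was -0.01. In the lines the calls of this list went both ways. In Q20 Dnmt3b (1.16) and Dnmt3l (0.71) were called higher and Tet2 (-1.25), Mbd1 (-0.77) and Uhrf1 (-0.49) lower. In Q91 Dnmt3b (1.40) and Dnmt3l (0.95) were called higher and Tet2 (-1.27) lower. In Q111 Dnmt3b (1.31) was called higher and Tet2 (-1.01), Uhrf1 (-0.49) and Dnmt1 (-0.31) lower, and in Q50 Dnmt3l (1.14) and Hells (0.34) were called higher. Tet2 encodes an enzyme that oxidises methylcytosine, and Uhrf1 brings the maintenance methyltransferase Dnmt1 to DNA. Of 19 tested germline gene repressors of the PRC1.6, SETDB1 and G9a complexes 2 were called lower in the knock-out, Cbx1 by -0.41 and Trim28 by -0.25, and none higher, a share near the 8.81% of all tested genes.

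**Figure D5:**
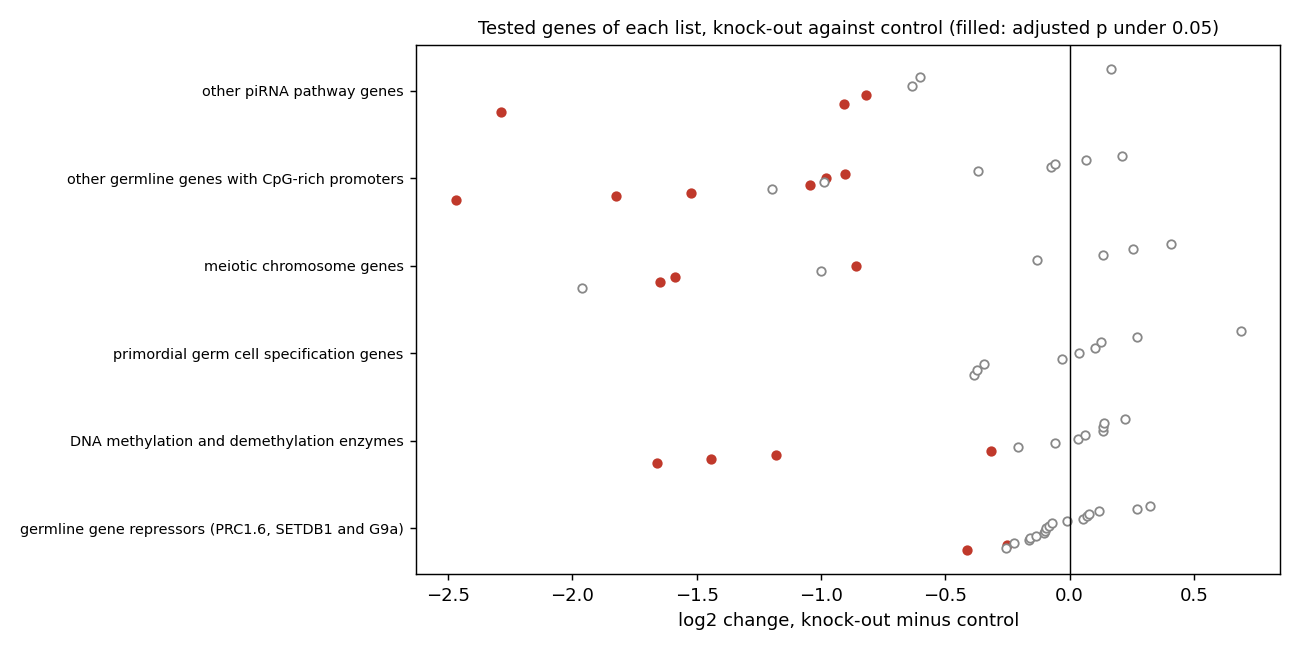
Log2 change of knock-out minus control (horizontal axis) of each tested gene of 6 lists (rows); filled points have an adjusted p under 0.05. All filled points lie below 0, from -2.47 for D1Pas1 to -0.25 for Trim28.

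Cell type markers were read on the same arrays. The 8 markers of undifferentiated embryonic stem cells averaged between 12.98 and 13.76 on every array. Of the 8, 4, 5 and 4 were called lower in Q20, Q91 and Q111 and none higher, with medians of -0.36, -0.51 and -0.31. Of all tested genes 26.7%, 24.6% and 27.4% were called there, in either direction. The changes of Esrrb were -1.37, -1.40 and -1.24. In Q50 limma called none (3 at an unadjusted p under 0.05), where 7.50% of all tested genes were called. In the knock-out 1 was called higher, where 16.4% of all tested genes were called. Of 9 markers of late germ cells, such as protamines and zona proteins, 7 stayed below log2 5 on every array, with array means between 2.88 and 3.31, as did 6 of 7 markers of primitive endoderm. In the lines the 8 markers of primed epiblast averaged between 7.50 and 9.87 on single arrays, against 6.36 to 6.96 in controls and 5.88 to 6.46 in knock-outs. They were called higher for 7, 4, 6 and 8 of 8 genes in Q20, Q50, Q91 and Q111. Of all tested genes 26.7%, 7.50%, 24.6% and 27.4% were called in these lines, in either direction. Of 7 trophoblast markers 4 stayed below log2 5 on every array. The other 3, Krt8, Krt18 and Eomes, were all called higher in Q20, Q91 and Q111, with medians of 4.24, 4.86 and 4.79. In Q50 2 were called higher, and the shares of all tested genes were those just given. The keratin gene Krt8, which other epithelia express too, averaged 7.94 in controls, 6.68 in knock-outs and 12.2, 10.6, 12.9 and 12.8 in Q20, Q50, Q91 and Q111. Array means of the 7 lay between 4.99 and 6.70 in the lines, 4.57 and 4.93 in controls and 4.28 and 4.80 in knock-outs. Of 9 fibroblast markers 5 stayed below log2 5 on every array. Of the 4 tested, 1, 2 and 2 were called higher in Q20, Q91 and Q111 and none lower, beside the same shares of all tested genes. In Q50 limma called none (2 at an unadjusted p under 0.05), with a median of -0.35, and in the knock-out 1 was called lower. Col1a1, picked after its values were seen, averaged 3.73 in controls and 7.98, 7.48 and 8.40 in Q20, Q91 and Q111. In bulk RNA fewer cells with a transcript and less of it per cell cannot be told apart, and the part of cell state in the values of the lines was not tested.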

How the data were processed

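Total RNA of 24 samples was labelled with biotin and hybridised to 1 array each. The deposited log2 values come from GCRMA, as the submitters' processing notes state. The method corrects background by probe sequence, normalizes arrays and summarises probe sets; the version used by the authors was not given in the sources used here. GCRMA pulls weak signals towards a floor, so changes of weak genes are less certain.

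Without the 64 AFFX controls, 17980 probe sets with log2 5 or more on at least 3 arrays were tested. All 24 arrays entered 1 limma fit (limma 3.58.1, R 4.3.3) of group means, which leaves 18 degrees of freedom. Tests were two-sided and moderated, with Benjamini-Hochberg adjustment over all probe sets and a threshold of 0.05; the repeat slope used the 12 knock-in arrays. The comparison between sets of replicates was added after seeing the data. The fit was tested on simulated data. The number of arrays limits the precision.

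Genes were named from the 34945 probe sets with 1 gene symbol; the other 10092 were not used for genes. Each gene was represented by its strongest probe set, by the mean of 24 arrays. The text names all members on every single-gene probe set, Htt, the list genes with the smallest p (all called ones where 5 or fewer) and the 3 genes most like each called member; Eif2s3y, Col1a1, Esrrb, Pou5f1, Sox2 and the annotated neighbours were chosen after their values were seen. Members and lists were chosen with earlier results of these data known. Promoters came from RefSeq (GRCm38.p6), with the most upstream window where a gene had several; the arrays name no build. Alternatives were other filters, normalizations and variance priors, a replicate block, fewer groups and leaving out arrays.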

Additional observations from a re-analysis of the deposited data

Results flagged for a closer look

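The Dppa3 change in the knock-out differed by -7.34 (SE 0.62, limma adjusted p = 3.38e-06) between replicates 4 to 6 and 1 to 3. This comparison was added after seeing the data. The change had opposite directions in the sets. The numbers do not pair the groups, and the sign depends on which sets are compared. The same difference for Tdrd12 was -1.63 (SE 0.34, adjusted p = 0.0194), with lower values in both sets and a size that likewise depends on that choice. Over the 4 knock-in lines, the F-test gave adjusted p = 0.0386 for Ddx4 and 0.0483 for Sycp3. In 1 of 22 groups of 6 arrays examined, the control group of Asz1, 1 array stood apart: replicate 4 at 3.60, below the tested range like all Asz1 values. Chance marks about 1 in 20 such groups.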

How the results depend on the processing

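Direction and call were compared with the fits described above, and a sign change counted only where a value was called. Of the knock-out calls, Tdrd12, Mael and Fmr1nb were called under every alternative run. The larger moves in the number of the 8 genes called were as follows, with smaller ones named after them. With only the compared groups in the fit it was 5 in the knock-out, 2 in Q91, 1 in Q111, 0 in the F-test over the lines and 4 for the difference between sets of replicates. With no filter it was 1 in Q111 and 0 in the F-test. Quantile normalization gave 2 in Q91, and median centring gave 2 in Q91 and 4 in Q111. With control replicates 1 to 3 alone it was 1 in Q50 and 2 in Q91, and with replicates 4 to 6 alone 1 in Q20 and 1 in Q111; these settings were chosen after seeing the data. Smaller moves came from single genes. Piwil2 in Q20 lost its call with no filter (limma adjusted p = 0.0617) and with control replicates 1 to 3 alone (0.0559). Sycp3 in Q111 gained one with quantile normalization (0.0214). Fmr1nb gained one in the F-test with quantile normalization (0.0436), median centring (0.0498) and an intensity trend (0.0427). The Dppa3 change in the knock-out turned to 2.42 with replicates 1 to 3 alone, and was called there and with replicates 4 to 6 alone.

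Leaving out 1 array at a time, the count stayed at 3 in the knock-out, at 6 against the mean of the lines and at 0 in Q50 and for the slope; it ran from 2 to 3 in Q20, 1 to 3 in Q91, 1 to 3 in Q111, 0 to 3 in the F-test and 1 to 2 for the difference between sets. With a replicate block the count was 3 in the knock-out, 1 in Q111 and 0 in the F-test, and Piwil2 in Q20 lost its call (adjusted p = 0.0621). The same setting gave adjusted p = 0.0913 for Ddx4 and 0.0548 for Sycp3 in the F-test and 0.109 for Dppa3 in Q111. The numbers do not pair control and knock-out arrays: deviations of arrays of the same number correlated with r from -0.41 to -0.26 over 6 pairs. Among the lines, all 3 same-number pairs exceeded 0.1 for Q20 with Q111 (0.39 to 0.46) and for Q50 with Q91 (0.20 to 0.41), but not for the other 4 pairs of lines. Over all groups 19 of 48 such pairs exceeded 0.1. The cause of the moved calls was not tested. Weak signals limit Asz1, Dazl and Fmr1nb in the knock-out, where means were below log2 5.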
